A study of Arabidopsis thaliana with 15 samples.

Results

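Of the 21593 genes listed for leaves of Arabidopsis thaliana, 121 were lowered when plants entered strong light and then rebounded above their starting level. They were chosen from the means of the 3 libraries per condition. A member had a mean of at least 20 normalized counts in growth light (GL), a mean of at most 0.5 times GL after 15 or 60 min of high light (HL15 or HL60), and a mean of at least 2 times GL after 60 min of recovery (R60). The values of GL, HL15, HL60 and R60 therefore chose the genes and are given below as a description. Recovery of 15 min (R15) was not used in the choice and is the condition whose values were tested.

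The plants were Col-0, the common laboratory strain, grown for 6 to 7 weeks in an 8 h photoperiod, and leaf number 7 was taken. Growth light was 100 μmol photons m-2 s-1, in which GL plants remained. High light was 1000 μmol photons m-2 s-1, lasting 15 min in HL15 and 60 min in HL60. For R15 and R60, an exposure of 60 min was followed by 15 or 60 min back at growth light. Each condition had 3 biological replicates, 15 libraries in all, with an estimated 14403243 to 28102805 reads per library. Values are normalized counts, whose scaling is not described in the sources used here, so levels are compared within a gene and not between genes. GL was 1 group with no match in clock time to the treated plants, so an effect of light and one of the time of day cannot be told apart. HL15 replicate 1 and HL60 replicate 1 stood apart from the other libraries of their conditions. Between libraries, chi-square divided by its degrees of freedom was 37.8 and 32.1 for the pairs of HL15 replicate 1 and 1.58 for the other HL15 pair, and 70.7 and 87.6 for the pairs of HL60 replicate 1 and 19.5 for the other HL60 pair. The summed level of 5 mesophyll markers was 539952 to 714606 in R60 and 1074820 to 1094510 in GL, and in whole leaves fewer cells of a type and less RNA per cell cannot be told apart. The sum of 4 guard cell markers was 486 to 603 in HL15 and 754 to 922 in GL, that of 4 xylem markers 187 to 199.9 in HL15 and 239 to 331 in GL, and that of 3 phloem markers 1628 to 1869 in HL60 and 2742 to 3123 in GL. In R15 the sums were 845705 to 892546 for mesophyll, 994 to 1147 for guard cell, 234 to 360 for xylem and 1771 to 1937 for phloem markers. Single markers differed. From GL to HL60 the mean of SUC2 went from 2347 to 1207, SEOR1 from 456 to 307 and APL from 154 to 228. From GL to R60 the mesophyll marker RCA went from 346125 to 142803 and RBCS1A from 279536 to 241744. Of 3 trichome markers, 2 were in the table, with a sum of 98.0 to 135 in R60 and 60.6 to 64.8 in GL. The mean of GL3 went from 2.12 in GL to 58.3 in R60, and that of GL2 from 60.0 to 57.1. The sum of 2 epidermis markers was 1475 to 1880 in R60 and 1843 to 2087 in GL. Of 4 root markers, 1 was in the table, and the part of other cell types in the results was not tested.

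Plant cells invest much of their resources in ribosomes, which are assembled in the nucleolus, where box C/D ribonucleoproteins built on NOP56 and fibrillarin guide the methylation of ribosomal RNA. Pentatricopeptide repeat proteins bind RNA of chloroplasts and mitochondria and act in its processing, editing and translation. A further class of leaf genes is low while sugar is plentiful and high in darkness or starvation, and jasmonate, a lipid hormone, turns on defence metabolism. The rebounding genes held members of each of these groups, with transcription factors and cell wall enzymes.

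Among 16118 genes with a GL mean of at least 20, 1827 met the limit for lowering in high light and 1553 the limit for R60. The 121 rebounding genes were 6.62% of the lowered genes and 7.79% of the raised genes. Every one of the 121 passed the filter on low values. EXL3, an EXORDIUM-like cell wall protein, was just inside with an R60 mean of 2.02 times GL, and AT5G01210 just outside at 2.00 times. The DEAD-box RNA helicase STRS2 was just inside with an HL15 mean of 0.4998 times GL, and AT2G42650 just outside at 0.5003 times. At the limit for GL, NG1 was inside with a mean of 21.6 and AT3G02790 outside with 19.2 normalized counts. The median GL level was 86.4 normalized counts for the rebounding genes and 285 for all genes with a GL mean of at least 20. At R15, outside the rule, the median coefficient of variation among replicates was 23.0% for the rebounding genes and 11.1% for all genes with that GL mean.

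The choice was repeated with 1 replicate number left out, and the pattern was looked for in the libraries left out. With replicate 2 left out, 102 genes were chosen, and 64 of them (62.7%) met the same limits in replicate 2 alone, against 0.950% of 16006 other genes. With replicate 3 left out, 67 of 116 chosen genes (57.8%) met them, against 0.719% of the others. With replicate 1 left out, which holds the 2 libraries that stood apart, 55 of 176 chosen genes (31.2%) met them, against 0.521%. Of the chosen genes, 104, 83 and 93 were among the 121 without replicate 1, 2 and 3. The other genes are those that missed the limits in the remaining replicates, so a low share among them follows in part from the choice. The conditions are those of the rule, and the shares are a description. Leaving out 1 library at a time, 107 to 152 genes met the rule, and 102 to 119 of the 121 were among them. Of the genes whose values are given below, those lost without a GL library were AT1G08610, AT1G14453, TPS04, RAP2.7, AT2G33830, AT4G15700, RD19, ST2A, EXL3 and AT5G61520 for replicate 1, AT1G08610, AT1G14453, BBX17, NOP56, AT4G15700, FIB2, STRS2, DIN10 and EXL3 for replicate 2, and AT1G14453, TMT1, CSLA10, TEM1, EXL5, BSMT1, JRG21, ATCSLA15 and AT4G15700 for replicate 3. Without an HL15 library they were PID for replicate 1, AT1G08610, NOP56, FIB2 and STRS2 for replicate 2, and NOP56, AT4G15700, FIB2 and STRS2 for replicate 3. Without an HL60 library they were TMT1 and RD19 for replicate 1, FLS2 and AT5G61520 for replicate 2, and AT5G61520 for replicate 3. Without an R60 library they were AT1G14453, SUC1, RAP2.7 and EXL3 for replicate 1, BBX17, ERD5, ABCB21, XTH18, J11, DIN10, ERF5 and AT5G61590 for replicate 2, and KCS8, AT3G15450, ERF5 and DFL1 for replicate 3.

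By the time of lowering, 70 genes were at or below 0.5 times GL only at HL15, 31 only at HL60 and 20 at both times. For the genes lowered only at HL15, the median log2 ratio to the GL mean was -1.17, -1.40 and -1.38 in the HL15 libraries, -0.34, 0.34 and 0.57 in HL60, 0.66, 0.88 and 1.08 in R15, and 1.47, 1.80 and 1.53 in R60. Their median was thus above the GL mean in HL60 replicates 2 and 3 and below it in HL60 replicate 1. For the genes lowered only at HL60, it was -0.40, 0.03 and -0.08 in HL15, -1.39, -1.58 and -1.73 in HL60, -0.53, 0.34 and 0.20 in R15, and 1.14, 1.71 and 1.55 in R60. Genes lowered at both times had medians of -2.39, -2.02 and -1.78 in HL60, and of -1.08, -0.07 and -0.47 in R15. Within the conditions that the rule used, every HL15 library was below every GL library for 86 of the 90 genes lowered at HL15, against 25.1% of all genes tested. Every HL60 library was below every GL library for 47 of the 51 lowered at HL60, against 24.4%, and every R60 library was above every GL library for 108 of 121, against 27.6%. These conditions chose the genes, so nothing is read from the counts.

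**Figure D1:**
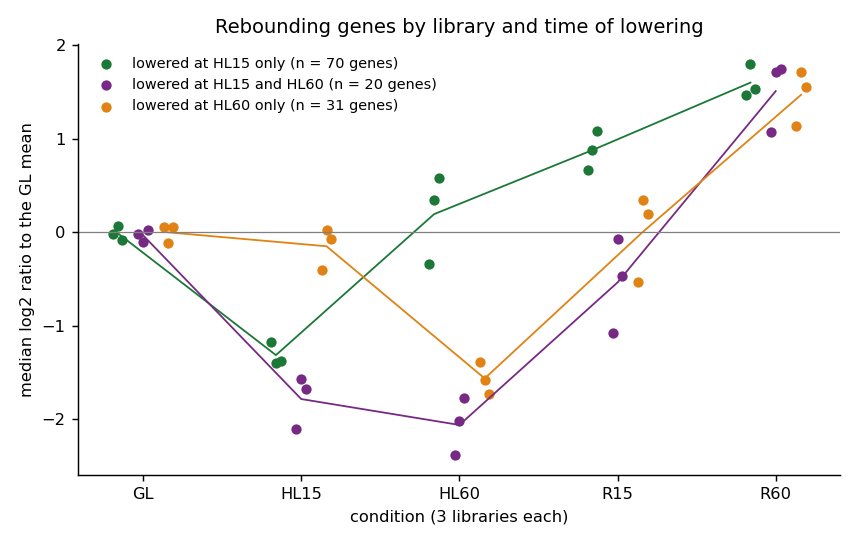
Median log2 ratio to the GL mean (vertical axis) in each library, by condition (horizontal axis), for rebounding genes split by when they were lowered; points are libraries and lines join the means of 3 libraries. Genes lowered only at HL15 were at -0.34 to 0.57 in HL60, while the other classes were at -1.39 to -2.39.

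Levels at R15, the condition outside the rule, were compared with GL to ask how early the genes passed their starting level. At R15, 34 of the 121 genes were higher than GL, against 10.9% of all 20512 genes tested, and 12 were lower, against 8.94%. A gene was called with limma at an adjusted p under 0.05 and a change of at least 2-fold, on the log2 of the value plus 1. Changes at R15 given for single genes below are on the log2 scale, R15 against GL, with their standard error (SE). The GL libraries are part of this comparison and were also part of the choice. The median log2 fold change of R15 against GL was 0.68 for the rebounding genes and 0.01 for all genes tested. Every R15 library was above every GL library for 62 of the 121 genes, against 29.6% of all genes tested, and below for 20, against 29.1%. As means, 17 genes were at R15 already at or above their R60 level, 26 were at 2 times GL or more but under R60, 46 lay between GL and 2 times GL, 17 between 0.5 times GL and GL, and 15 were at or below 0.5 times GL.

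The classes by time of lowering had different counts at R15. Of the 70 genes lowered only at HL15, 26 were called higher and 2 lower at R15 than in GL, with a median log2 fold change of 0.87. Of the 31 lowered only at HL60, 5 were higher and 3 lower, with a median of 0.13. Of the 20 lowered at both times, 3 were higher and 7 lower, with a median of -0.22. Over all genes tested, 10.9% were called higher and 8.94% lower at R15. The differences between these classes were not tested.

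**Figure D2:**
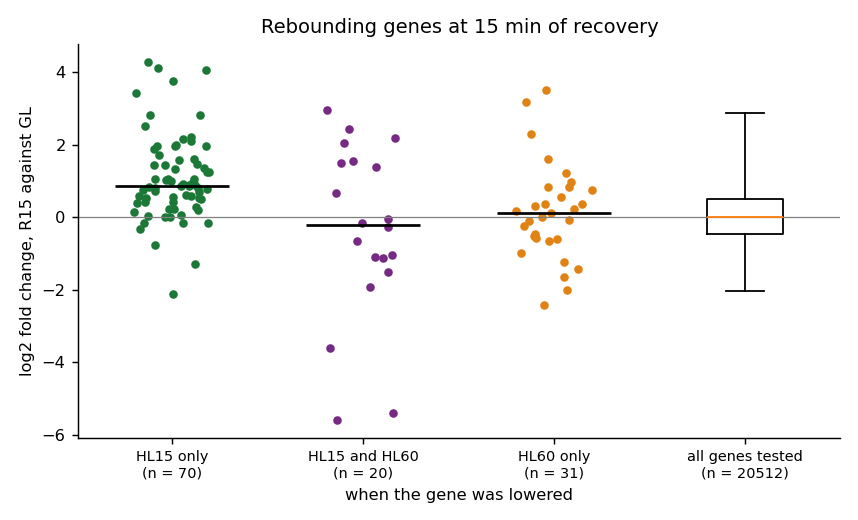
Log2 fold change of R15 against GL (vertical axis) for each rebounding gene, by when it was lowered (horizontal axis), beside all genes tested; black lines are medians, and the box and whiskers show the middle 50% and 95% of all genes. The median was 0.87 for genes lowered only at HL15, -0.22 for those lowered at both times and 0.13 for those lowered only at HL60.

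The remaining comparisons include a condition that chose the genes, and nothing is read from their counts. Between R15 and HL60, 42 genes were higher at R15, against 5.97% of all genes, and 2 were lower, against 3.73% (5 without HL60 replicate 1). Between R60 and R15, 51 were higher at R60, against 7.11%, and 6 were lower, against 8.05% (3 without R60 replicate 1). Between HL60 and HL15, 60 were higher at HL60, against 6.40%, and 23 were lower, against 6.22%. In the comparisons that made the rule, 72 were called lower at HL15 than in GL, against 4.66%, 41 lower at HL60, against 7.80%, and 100 higher at R60, against 10.7%.

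Ribosome assembly, translation and RNA accounted for 15 rebounding genes. This group and those that follow were formed from annotation after the list was seen, and genes named outside the naming rule were chosen after their values were seen. All but 1 were lowered only at HL15. NOP56, a core protein of box C/D ribonucleoproteins, had 1219.6, 1445 and 1135 normalized counts in GL, 737, 544 and 559.6 in HL15, 1146, 1527 and 1831 in HL60, 2324, 2335 and 2814 in R15 and 3611, 4392 and 3916 in R60. Its HL15 libraries lay below all others and its R60 libraries above all others. A second NOP56-like gene, AT5G27120, had 483, 576 and 415 normalized counts in GL, 231, 168 and 164 in HL15, 360.2, 525 and 627 in HL60, 863, 945 and 1257 in R15 and 2142, 2842 and 2353 in R60. FIB2, the fibrillarin that methylates ribosomal RNA, had 203, 348 and 184 normalized counts in GL, 183, 93.5 and 65 in HL15, 243, 441 and 582 in HL60, 803, 872 and 1101 in R15 and 1418, 1807 and 1450.0 in R60. In FIB2, HL15 replicate 1 was just under GL replicate 3, and the R15 libraries lay above every GL library. AT2G43110, annotated as a subunit of the U3 complex that processes the first ribosomal RNA transcript, had 139, 145 and 121 normalized counts in GL, 65.9, 53.7 and 57.7 in HL15, 247, 238 and 248 in HL60, 326, 313 and 371 in R15 and 480.0, 501 and 415 in R60.

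At R15, 6 of these 15 genes were called higher than GL and none lower, against 10.9% and 8.94% of all genes tested. The median log2 fold change of the 15 was 0.91. On the log2 scale, FIB2 rose by 1.96 (SE 0.36, adjusted p = 0.000419), AT2G43110 by 1.31 (SE 0.12, adjusted p = 9.83e-07) and AT5G27120 by 1.05 (SE 0.21, adjusted p = 0.000847). The call for AT5G27120 was at the edge of the fold limit, and it was lost at 0.95 with upper quartile scaling, 0.93 without GL replicate 3 and 0.89 without R15 replicate 3. NOP56 differed by 0.98 (SE 0.16, adjusted p = 0.000216), under the 2-fold limit. It passed the limit without GL replicate 2 (1.08), R15 replicate 1 (1.02) or R15 replicate 2 (1.02). STRS2, the helicase at the edge of the rule, had 253, 291 and 237 normalized counts in GL, 151, 119 and 121 in HL15, 199, 181 and 331 in HL60, 435, 524 and 491 in R15 and 809, 1019 and 881 in R60. PRMT1A, a protein arginine methyltransferase, had 147, 111 and 93.3 normalized counts in GL, 61.1, 37.95 and 33.9 in HL15, 119.7, 149 and 189.9 in HL60, 199.5, 163 and 273 in R15 and 570.0, 541 and 526 in R60. In STRS2 and PRMT1A every R15 library lay above every GL library. TRM82, the counterpart of a yeast subunit that methylates transfer RNA, had 172, 127 and 119.7 normalized counts in GL, 70.8, 44.1 and 48.99 in HL15, 92.03, 134 and 126 in HL60, 222, 181 and 215 in R15 and 369, 495 and 347 in R60. Its R15 and R60 libraries lay above every GL library.

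The exception in timing was AT1G67120, the Arabidopsis midasin, a very large ATPase that in yeast strips assembly factors from the large ribosomal subunit. It had 935, 900.0 and 1130.2 normalized counts in GL, 748, 879 and 869.7 in HL15, 253, 254 and 633 in HL60, 546, 662 and 981 in R15 and 2243, 2477 and 2479.5 in R60. Its mean was lowest at HL60, and at R15 it was not called against GL (log2 fold change -0.47, SE 0.28, adjusted p = 0.19). The ribosomal protein genes AT3G10610, of the S17 family, and AT2G40010, of the L10 family, were also in the group. Transcripts of AT2G40010 share 45.4% of their 31-base words with other annotated genes, mostly a gene on the other strand, and those of PRMT1A 22.3%. Their values are less certain, since the strand setting of the counting is not given in the sources used here.

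**Figure D3:**
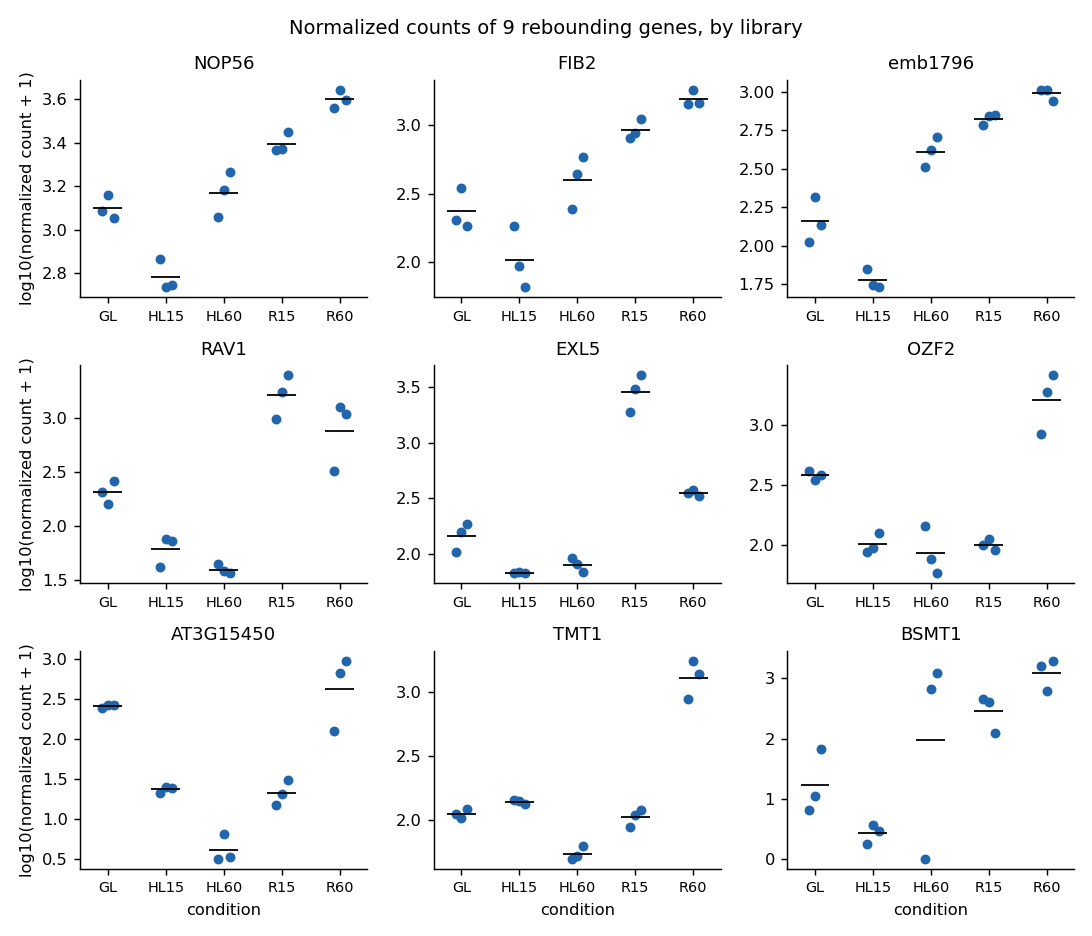
Normalized counts of 9 rebounding genes on a log10 scale after adding 1 (vertical axes) in the 3 libraries of each condition (horizontal axes); points are libraries and lines are means of the log values. NOP56, FIB2 and emb1796 were lowest at HL15, OZF2, AT3G15450 and TMT1 were highest at R60, EXL5 peaked at R15, and BSMT1 was at 0 in HL60 replicate 1.

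The promoters of this group shared short sequence features that the rule did not use. The telobox AAACCCTA, a motif known from promoters of plant ribosomal protein genes, was present within 250 bases before to 50 bases after the annotated start in 8 of the 15 genes (53.3%), against 5.62% of 20337 promoters of the genes tested. TGGGCC, the core of the site II element that often stands beside it, was in 9 of 15 (60.0%), against 18.7%. Both strands were searched, and TGGGCC was added after the list was seen. Sequences are from RefSeq, assembly TAIR10.1, and each gives the 200 bases before the annotated gene start, read 5′ to 3′ on the strand of the gene, with telobox and site II letters in capitals. They are shown because these genes carry both motifs before the start. The windows lie at chr1:20986953-20987152 on the minus strand for NOP56, chr5:9540661-9540860 on the plus strand for AT5G27120, chr4:14960322-14960521 on the minus strand for AT4G30680 and chr1:2735820-2736019 on the minus strand for the pentatricopeptide repeat gene AT1G08610.
NOP56: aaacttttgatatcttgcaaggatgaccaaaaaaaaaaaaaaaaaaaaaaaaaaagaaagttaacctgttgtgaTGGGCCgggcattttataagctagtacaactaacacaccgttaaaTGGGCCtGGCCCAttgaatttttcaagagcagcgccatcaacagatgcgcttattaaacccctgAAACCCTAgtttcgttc
AT5G27120: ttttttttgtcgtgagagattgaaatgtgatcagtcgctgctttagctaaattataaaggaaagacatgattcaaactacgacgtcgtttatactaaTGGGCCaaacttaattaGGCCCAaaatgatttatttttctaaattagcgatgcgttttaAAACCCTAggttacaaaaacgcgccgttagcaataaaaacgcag
AT4G30680: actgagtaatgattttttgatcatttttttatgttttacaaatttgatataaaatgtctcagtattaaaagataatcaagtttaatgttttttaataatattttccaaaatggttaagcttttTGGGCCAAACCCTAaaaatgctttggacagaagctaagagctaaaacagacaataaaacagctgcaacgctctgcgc
AT1G08610: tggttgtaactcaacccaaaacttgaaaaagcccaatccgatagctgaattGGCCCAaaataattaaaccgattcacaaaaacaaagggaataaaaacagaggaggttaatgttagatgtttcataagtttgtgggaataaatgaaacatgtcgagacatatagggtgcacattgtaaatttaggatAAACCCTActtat

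In NOP56, the telobox began 17 bases before the start and 3 runs of the site II letters stood between 126 and 69 bases before it. In AT5G27120, it began 44 bases before the start, with site II runs 103 and 86 bases before it. In AT4G30680, a gene with an MA3 domain of translation initiation factors, the site II run and the telobox adjoined each other, beginning 77 and 71 bases before the start. In AT1G08610 the telobox began 13 bases and the site II run 149 bases before the start. A match is a description of letters, not a site or a cause. Among genes that were lowered at HL15 but stayed under 2 times GL at R60, 2.98% of 805 had the telobox, and among genes that reached 2 times GL at R60 without being lowered, 11.2% of 1432. Among ribosomal protein genes outside the rebounding genes, 34.4% of 358 had it, and among other genes annotated for nucleolar or ribosomal RNA processing functions, 18.9% of 53. The site II letters were in 52.0% of the same ribosomal protein genes and 34.0% of the same nucleolar genes.

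All 8 pentatricopeptide repeat genes among the 121 were lowered only at HL15. Loss of emb1796 arrests the embryo, and this gene had 105, 206 and 135 normalized counts in GL, 70.1, 54.2 and 52.8 in HL15, 322, 416 and 504 in HL60, 608, 692 and 703 in R15 and 1024, 1028 and 872 in R60. Its HL60 libraries already lay above every GL library. AT3G13150 had 66.5, 78.8 and 58.4 normalized counts in GL, 35.04, 27.1 and 28.3 in HL15, 107, 125 and 135 in HL60, 223, 265 and 315 in R15 and 365, 445 and 339 in R60. AT5G62370 had 59.9, 67.8 and 58.4 normalized counts in GL, 19.4, 15.6 and 22.6 in HL15, 83.1, 98.5 and 129 in HL60, 139, 181 and 197 in R15 and 264, 299 and 297 in R60. In all of these the HL15 libraries were the lowest. AT1G08610 had 162, 167 and 147 normalized counts in GL, 90.96, 66.4 and 78.2 in HL15, 184, 217 and 234 in HL60, 232, 249 and 297 in R15 and 438, 451 and 443 in R60. At R15, emb1796 (log2 fold change 2.21, SE 0.21, adjusted p = 1.41e-06), AT3G13150 (1.96, SE 0.18, adjusted p = 7.22e-07) and AT5G62370 (1.45, SE 0.19, adjusted p = 2.82e-05) were higher than GL, and none of the 8 was lower. LOJ differed in course, with 22.2, 30.9 and 18.8 normalized counts in GL, 11.9, 9.49 and 5.65 in HL15, 9.90, 19.7 and 20.05 in HL60, 16.04, 22.3 and 25.8 in R15 and 113, 129 and 112 in R60, so that its R15 libraries lay within or close to the GL range. All 31-base words of emb1796 occur in other genes, most of them in DMS3, annotated across it on the opposite strand, so its values are uncertain. DMS3 had 233 to 323 normalized counts in GL and 196 to 236 in R60, and its values did not follow those of emb1796. Of the 8 genes, 5 have a single exon (62.5%), against 16.1% of the protein-coding genes tested, and 5 have the site II letters (62.5%) and 3 the telobox (37.5%). The other 449 pentatricopeptide repeat genes tested had them in 26.3% and 11.4%. Single exons were not counted in those 449, so whether that trait is particular to the 8 was not tested. Over all 457, 17 were called higher (3.72%) and 16 lower (3.50%) at R15 than in GL, against 10.9% and 8.94% of all genes tested, and 134 were called higher at R60 (29.3%), against 10.7%.

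Sugar transport and the low-energy response contributed 10 rebounding genes, of which 6 were lowered only at HL60. AT2G44130 encodes the F-box protein KISS ME DEADLY 3, which targets type-B response regulators of cytokinin signaling for breakdown. It had 33.3, 63.8 and 33.9 normalized counts in GL, 0 in every library of HL15, 0 in every library of HL60, 0 in every library of R15 and 325, 1037 and 696 in R60. It was listed at 0 in every HL15, HL60 and R15 library, and its R60 mean was at least 229 times the floor of 3 counts per library. Its annotated gene lies within AT2G44140 on the opposite strand, which had 245 to 438 normalized counts over all libraries and was at 0 in none. All 31-base words of AT2G44130 occur in other genes, most of them in AT2G44140, so its values are uncertain. AT3G15450, annotated as an aluminum-induced protein, had 242, 263 and 267 normalized counts in GL, 20, 24.2 and 23.4 in HL15, 2.18, 5.44 and 2.33 in HL60, 13.9, 19.7 and 29.9 in R15 and 124, 662 and 942 in R60. DIN10, a dark-inducible gene of the raffinose synthase family, had 293, 241 and 309 normalized counts in GL, 77.2, 328 and 378 in HL15, 40.8, 44.02 and 33.96 in HL60, 33.1, 93.6 and 105 in R15 and 229.7, 1142 and 386 in R60. AT2G33830, dormancy associated gene 2, had 33.3, 18.2 and 19.8 normalized counts in GL, 6.74, 25.4 and 43.7 in HL15, 6.69, 4.95 and 3.18 in HL60, 2.26, 7.67 and 14.5 in R15 and 24.4, 85.5 and 179 in R60. In these genes the R60 libraries were spread widely, with replicate 1 lowest in each.

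At R15, none of the 10 genes was called higher than GL and 3 were lower, against 10.9% and 8.94% of all genes tested. AT3G15450 fell by 3.61 on the log2 scale (SE 0.55, adjusted p = 9.97e-05) and DIN10 by 2.00 (SE 0.61, adjusted p = 0.0143). Without R15 replicate 1 the value for DIN10 was -1.49 and the call was lost. TMT1, a transporter that loads sugar into the vacuole, had 111, 102 and 119.8 normalized counts in GL, 143, 140.4 and 131 in HL15, 48.5, 51.5 and 61.2 in HL60, 87.3, 109 and 119 in R15 and 892, 1754 and 1396 in R60, with the R15 libraries close to those of GL. ATBFRUCT1, an invertase of the cell wall that splits sucrose, had 67.2, 55.8 and 73.7 normalized counts in GL, 23.8, 23.7 and 18.8 in HL15, 34.6, 67.6 and 113 in HL60, 78.2, 60.8 and 59.8 in R15 and 348, 968 and 639 in R60. SUC1, a proton-coupled sucrose carrier, had 976, 1086 and 1217 normalized counts in GL, 599, 634 and 592 in HL15, 497, 398 and 307 in HL60, 1168, 2295 and 2644 in R15 and 2959.8, 2747 and 1540.0 in R60, and its R15 and R60 levels overlapped. In ATBFRUCT1 the R15 libraries overlapped those of GL. ERD5, the mitochondrial proline dehydrogenase, had 88.7, 94.7 and 110.3 normalized counts in GL, 46.97, 36.6 and 47.1 in HL15, 32.7, 60.2 and 89.7 in HL60, 29.1, 69.2 and 88.1 in R15 and 135, 332 and 171 in R60. Its R60 libraries lay above every other library. PMT6, a polyol transporter, had 38.8, 23.9 and 26.4 normalized counts in GL, 11.2, 47.4 and 45.2 in HL15, 6.93, 14.2 and 12.7 in HL60, 33.1, 97.7 and 58.04 in R15 and 58.9, 153 and 103 in R60. The sugar transporter AT5G61520 had 55.1, 48.1 and 51.9 normalized counts in GL, 80.7, 134 and 133 in HL15, 43.1, 23.3 and 10.7 in HL60, 32.5, 35.8 and 28.3 in R15 and 144, 202 and 185 in R60. HL15 libraries of AT5G61520 all lay above GL, and those of PMT6 lay above and below it. In the list of 14 F-box and starvation genes that held AT2G44130 and DIN10, 1 was called higher and 7 lower at R15 than in GL. Over all genes tested, the shares were 10.9% and 8.94%. At R60, 3 of the 14 were higher, against 10.7% of all genes, and 4 lower, against 1749 of 20512 genes. Higher at R60 were AT2G44130, KMD2 and BT2. Lower at R60 on the log2 scale were ASN1 (-3.21), SEN1 (-4.07), TPS9 (-1.78) and TPS11 (-1.15). DIN10 was not called at R60 (log2 fold change 0.74, adjusted p = 0.355), so the list did not move in 1 direction.

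The I-box letters GATAAG were found in the promoters of 4 of these 10 genes (40.0%), against 14.8% of all promoters, and in 11 of the 31 genes lowered only at HL60 (35.5%). They were also in 7 of 12 F-box and starvation genes outside the rebounding genes (58.3%) and in 20.5% of 1706 genes that were lowered and stayed under 2 times GL at R60. None of the 15 ribosome-related genes had them. AT3G15450 is shown because it carries 2 of them, beginning 89 and 63 bases before its start, in capitals in its 200 bases at chr3:5212784-5212983 on the plus strand.
AT3G15450: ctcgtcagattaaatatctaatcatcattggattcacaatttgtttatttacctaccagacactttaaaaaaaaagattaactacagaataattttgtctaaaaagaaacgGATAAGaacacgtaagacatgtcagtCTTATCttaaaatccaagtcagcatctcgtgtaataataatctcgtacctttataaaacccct

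**Figure D4:**
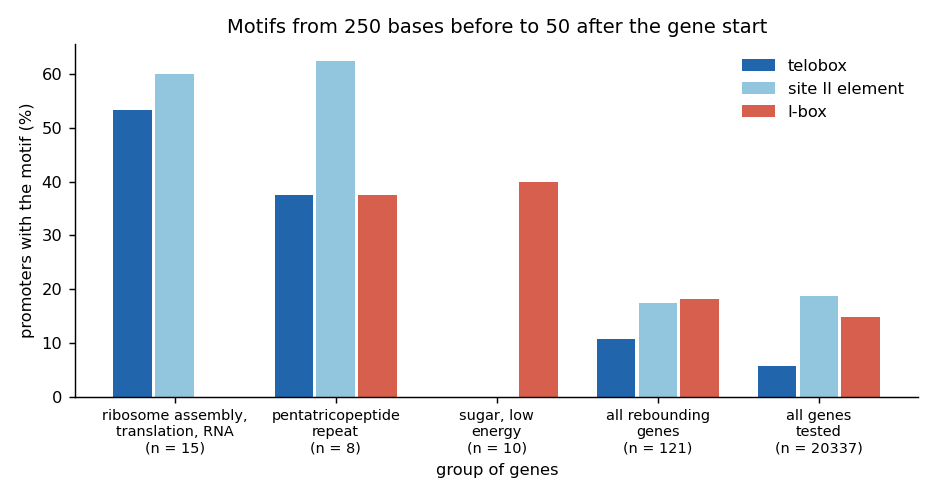
Share of promoters with each motif in percent (vertical axis) by group of genes (horizontal axis); bars are the telobox, the site II element and the I-box, and group sizes are in parentheses. The telobox was in 53.3% of the ribosome-related genes and 5.62% of all genes tested.

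Jasmonate output and defence metabolism accounted for 7 rebounding genes, and 6 of them were among the 8 with the highest ratios of R60 to GL. Their fall from GL to HL15, part of the rule, was called with limma only in ST2A (adjusted p = 0.0358). In BSMT1, JRG21, TPS04, MBP2, NATA1 and NAI2 it was not called (adjusted p = 0.0687 to 0.691). In TPS04, GL replicate 2 lay below every HL15 library. BSMT1, which methylates benzoic and salicylic acid, had 5.54, 9.97 and 65.97 normalized counts in GL, 0.746, 2.71 and 1.88 in HL15, 0, 653 and 1253 in HL60, 453, 409 and 120.4 in R15 and 1619, 627 and 1938 in R60. TPS04, the synthase of the volatile geranyllinalool, had 86.5, 5.98 and 53.7 normalized counts in GL, 8.95, 18.3 and 24.5 in HL15, 8.91, 673 and 2356 in HL60, 444, 732 and 529 in R15 and 2221, 724 and 1389 in R60. JRG21, a jasmonate-regulated oxygenase, had 28.7, 8.03 and 47.5 normalized counts in GL, 3.75, 9.56 and 2.85 in HL15, 7.97, 332 and 556 in HL60, 196, 156 and 79.1 in R15 and 948, 816 and 973 in R60. In BSMT1, TPS04 and JRG21, HL60 replicate 1 was near the HL15 level while the other HL60 libraries were far above GL. NATA1, an acetyltransferase of ornithine, had 64.3, 16.95 and 140.4 normalized counts in GL, 6.71, 22.4 and 21.7 in HL15, 3.96, 62.4 and 44.3 in HL60, 121, 45.8 and 19.3 in R15 and 1458, 1214 and 1772 in R60. ST2A, a sulfotransferase that inactivates hydroxyjasmonate, had 66.5, 18.9 and 16.96 normalized counts in GL, 2.98, 6.10 and 8.48 in HL15, 2.97, 15.3 and 24.3 in HL60, 32.1, 34.6 and 82.8 in R15 and 355, 955 and 1282 in R60. MBP2, a myrosinase-binding protein, had 28.05, 18.2 and 37.1 normalized counts in GL, 6.04, 8.82 and 1.91 in HL15, 3, 72.9 and 77.1 in HL60, 76.5, 58.8 and 38.1 in R15 and 579, 872 and 929 in R60. In NATA1, ST2A and MBP2 every R60 library lay above all others. NAI2, a protein of endoplasmic reticulum bodies, had 43.6, 45.8 and 74.5 normalized counts in GL, 9.86, 20.95 and 24.7 in HL15, 19.4, 328 and 638 in HL60, 97.4, 187 and 181 in R15 and 1441, 532 and 516 in R60.

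The median log2 ratio of the 7 genes to the GL mean was 0.01, -1.36 and 0.44 in the GL libraries, -2.61, -1.55 and -1.89 in HL15, -2.85, 2.56 and 3.52 in HL60, 1.43, 1.75 and 1.46 in R15, and 4.70, 4.48 and 5.01 in R60. GL replicate 2 was closer to the highest HL15 library than to the other GL libraries. With GL replicate 3 left out of the choice, BSMT1 and JRG21 no longer met the rule, and with GL replicate 1 left out TPS04 and ST2A did not. At R15, TPS04 was the only 1 of the 7 called higher than GL (log2 fold change 4.11, SE 1.44, adjusted p = 0.0303). Its call was lost without any 1 of the R15 libraries or GL replicate 2, with values of 3.01 to 4.27. None of the 7 was called lower, and of all genes tested 10.9% were called higher and 8.94% lower. Every R15 library nevertheless lay above every GL library in BSMT1, TPS04, JRG21, MBP2 and NAI2, but not in NATA1 and ST2A. Log2 fold changes were 4.07 (SE 1.88) in BSMT1, 2.52 (SE 1.12) in JRG21, 1.47 (SE 0.90) in NAI2 and 1.03 (SE 0.85) in MBP2. The SE pools all conditions, HL60 with its split libraries among them. A missing call is therefore not read as a level equal to GL.

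**Figure D5:**
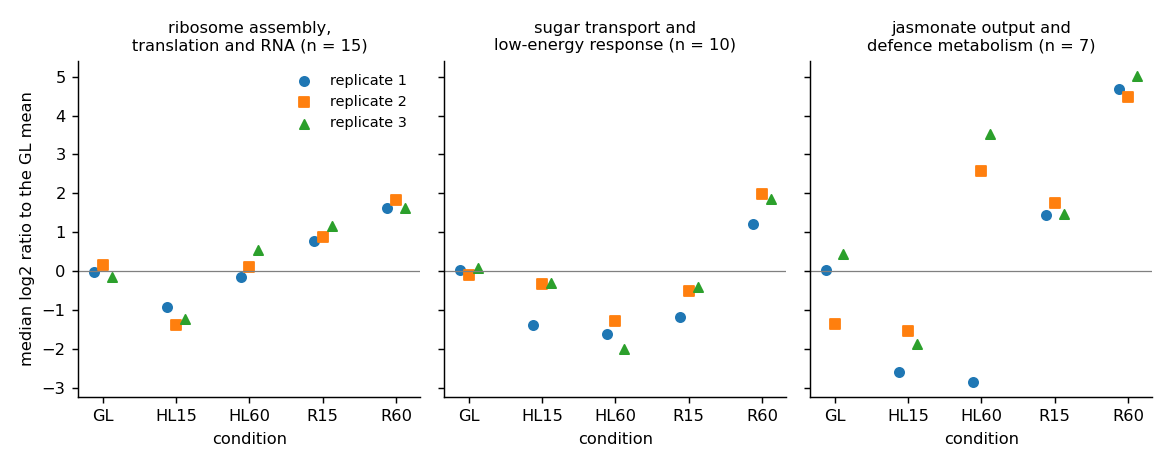
Median log2 ratio to the GL mean (vertical axis) in each library by condition (horizontal axes) for 3 groups of rebounding genes; symbols mark the replicate number. In the jasmonate group HL60 replicate 1 was at -2.85 and the other HL60 libraries at 2.56 and 3.52, while the ribosome group spanned -0.14 to 0.53 in HL60.

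Transcription factors and related regulators made up 13 of the 121 genes, and their courses differed. RAV1 and TEM1 belong to a family with AP2 and B3 domains whose members repress flowering. RAV1 had 206, 159 and 260.1 normalized counts in GL, 41.01, 74.6 and 72.5 in HL15, 43.5, 37.2 and 35.9 in HL60, 963, 1724 and 2444 in R15 and 324, 1246 and 1068 in R60. TEM1 had 74.3, 52.9 and 101 normalized counts in GL, 27.6, 75.2 and 63.1 in HL15, 44.5, 30.6 and 22.2 in HL60, 496, 1016 and 1189 in R15 and 161, 973 and 687 in R60. Both peaked at R15 by their means, with R60 replicate 1 well below the other R60 libraries. At R15, TEM1 rose by 3.50 (SE 0.57, adjusted p = 0.00016) and RAV1 by 2.96 (SE 0.44, adjusted p = 6.85e-05). ERF5, an ethylene response factor, had 31.04, 21.9 and 24.5 normalized counts in GL, 12.7, 44.7 and 57.5 in HL15, 19.8, 4.38 and 4.22 in HL60, 193, 244 and 282 in R15 and 8.03, 83.8 and 77.8 in R60, and rose at R15 by 3.16 (SE 0.77, adjusted p = 0.00371), although R60 replicate 1 was below every GL library. ULT1, a regulator of flower meristems, had 43.5, 28.4 and 36.9 normalized counts in GL, 9.40, 12.1 and 11.9 in HL15, 17.7, 10.4 and 25.5 in HL60, 94.3, 142 and 254 in R15 and 96.8, 77.5 and 94.8 in R60, and rose at R15 by 2.04 (SE 0.35, adjusted p = 0.000252). AT5G61590, known as DEWAX, a repressor of wax synthesis genes, had 274, 280.2 and 283 normalized counts in GL, 5.22, 10.2 and 3.77 in HL15, 0, 1.09 and 4.22 in HL60, 459, 1088 and 947 in R15 and 211, 982 and 783 in R60, with at most 10.2 normalized counts in high light and every R15 library above GL, although R60 replicate 1 was below GL. At R15 it was not called.

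OZF2, FBH4 and BBX17 were lower at R15 than in GL, and FBH4 had been near GL at HL60. OZF2, a tandem CCCH zinc finger protein, had 414, 346 and 378 normalized counts in GL, 85.7, 92.9 and 123 in HL15, 143, 74.4 and 56.98 in HL60, 98.3, 111 and 89.2 in R15 and 843, 1872 and 2574 in R60, and fell at R15 by 1.92 on the log2 scale (SE 0.35, adjusted p = 0.000452). FBH4, a basic helix-loop-helix activator of the flowering gene CONSTANS, had 114, 101 and 132 normalized counts in GL, 54.8, 48.2 and 38.2 in HL15, 92.4, 136 and 140.2 in HL60, 58.3, 47.8 and 35.6 in R15 and 231, 305 and 273 in R60, and fell at R15 by 1.29 (SE 0.22, adjusted p = 0.000242). Its transcripts share 44.0% of their 31-base words with other annotated genes. BBX17, a B-box protein, had 84.3, 65.9 and 82.7 normalized counts in GL, 17.6, 27.97 and 22.2 in HL15, 1.01, 1.12 and 1.01 in HL60, 0, 0 and 3.30 in R15 and 102, 228 and 171 in R60, and its HL60 and R15 libraries held at most 3.30 normalized counts. RAP2.7, an AP2 factor that represses flowering, had 1434, 1491 and 1580.2 normalized counts in GL, 592, 765 and 728 in HL15, 1779.6, 2251 and 2956 in HL60, 2038, 3033 and 2789 in R15 and 3322, 2922 and 2944 in R60, and at R15 differed by 0.78 (SE 0.17, adjusted p = 0.00178), under the fold limit. HB5, a homeodomain leucine zipper factor, had 533, 587 and 506 normalized counts in GL, 223, 259.9 and 263 in HL15, 307, 424 and 433 in HL60, 419.6, 576 and 465 in R15 and 1597, 1971 and 1691 in R60, level with GL at R15 (-0.16, SE 0.15, adjusted p = 0.387). Of the 13, 4 were called higher and 3 lower at R15, against 10.9% and 8.94% of all genes tested, and 6 were not called.

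Genes of the cell wall and cuticle numbered 11. At R15, 6 of them were called higher than GL and none lower, against 10.9% and 8.94% of all genes tested. The median log2 fold change of the 11 was 2.17. Between R60 and R15, where R60 was part of the choice, 3 of the 11 were called higher at R60 and 4 lower. Over all genes tested, the shares were 7.11% and 8.05%. EXL5, an EXORDIUM-like protein, had 104, 157 and 188 normalized counts in GL, 67.1, 67.8 and 66.9 in HL15, 91.04, 80.99 and 68.6 in HL60, 1878, 3044 and 3999 in R15 and 354, 372 and 332 in R60. Its R15 libraries stood far above all others. It rose at R15 by 4.28 (SE 0.24, adjusted p = 9.22e-09). EXL3 had 275, 276 and 321 normalized counts in GL, 129.7, 148 and 131 in HL15, 107, 162 and 127 in HL60, 857, 1969.8 and 2284 in R15 and 691, 539 and 529 in R60, a rise at R15 of 2.43 (SE 0.27, adjusted p = 5.89e-06). In EXL3, too, the R15 libraries were the highest. EXPA10, an expansin that loosens walls, had 161, 179.7 and 129 normalized counts in GL, 40.3, 24.4 and 20.8 in HL15, 106, 752 and 984 in HL60, 848, 1124 and 1424 in R15 and 215, 424 and 427 in R60, a rise of 2.82 (SE 0.60, adjusted p = 0.00142). AT5G65660, a hydroxyproline-rich glycoprotein, had 143, 144 and 144 normalized counts in GL, 46.2, 31.9 and 31.1 in HL15, 82.1, 62.4 and 74.9 in HL60, 433, 765 and 818 in R15 and 248, 345 and 330.0 in R60, a rise of 2.16 (SE 0.23, adjusted p = 3.17e-06). As a description, every R15 library was above every R60 library in these 4 genes, and log2 fold changes of R60 against R15 were -3.01, -1.43, -1.70 and -1.09. The call for EXPA10 at R60 was lost without R15 replicate 2 or 3, without any 1 of the R60 libraries or with scaling to the same total (-1.87 to -1.38), and that for AT5G65660 without R15 replicate 2, R15 replicate 3 or R60 replicate 1 or with that scaling (-0.96 to -0.87).

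ATCSLA15 and CSLA10, glucomannan synthases of the CSLA family, had the highest and the fourth highest ratios of R60 to GL among the 121. Their fall from GL to HL15 was not called with limma (adjusted p = 0.408 and 0.342). ATCSLA15 had 32.8, 23.4 and 104 normalized counts in GL, 22.4, 11.8 and 23.1 in HL15, 33.3, 835 and 1504 in HL60, 634, 708 and 472 in R15 and 3631, 2748 and 3194 in R60, and was higher at R15 by 3.75 (SE 0.98, adjusted p = 0.00595). CSLA10 had 29.5, 38.6 and 95.9 normalized counts in GL, 14.4, 27.3 and 24.3 in HL15, 27.8, 484 and 523 in HL60, 263, 208 and 124 in R15 and 1682, 1490.4 and 2024 in R60. HL60 replicate 1 was near GL in both of these genes, while the other HL60 libraries were above it. KCS8, an enzyme of very long fatty acid synthesis, had 77.6, 76.8 and 14.1 normalized counts in GL, 34.3, 31.9 and 36.7 in HL15, 6.93, 5.47 and 7.39 in HL60, 238, 189 and 243 in R15 and 30.3, 168 and 276 in R60, and its rise at R15 of 2.30 (SE 0.68, adjusted p = 0.0121) was 1.51 and not called without GL replicate 3. XTH18, which remodels xyloglucan, had 27.7, 19.9 and 43.4 normalized counts in GL, 11.2, 10.2 and 16.02 in HL15, 0.99, 1.09 and 10.6 in HL60, 65.2, 113 and 322 in R15 and 12.5, 213 and 74.4 in R60. R60 replicate 1 lay within the GL range in KCS8 and below it in XTH18.

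Kinases and receptors numbered 8, and hormone-related genes 5. Of the 8, 1 was called higher and 0 lower at R15 than in GL, against 10.9% and 8.94% of all genes tested. WOL, the cytokinin receptor also known from vascular development, had 219.6, 166 and 178 normalized counts in GL, 100.2, 86.5 and 71 in HL15, 89.3, 239 and 276 in HL60, 278, 243 and 280.1 in R15 and 771, 594 and 521 in R60. FLS2, the receptor of bacterial flagellin, had 101, 88.5 and 103 normalized counts in GL, 98.4, 121 and 111 in HL15, 82.6, 14.3 and 26.5 in HL60, 53.4, 72.5 and 66.99 in R15 and 184, 434 and 214 in R60. AT5G56040, a leucine-rich repeat receptor kinase, had 264, 276 and 264 normalized counts in GL, 124, 88.8 and 111 in HL15, 403, 308 and 327 in HL60, 168, 218 and 268 in R15 and 536, 749 and 548 in R60. AT5G56040 was also above GL in every HL60 library, while FLS2 had its lowest mean there. CRK28, a cysteine-rich receptor kinase, had 67.6, 70.4 and 71.95 normalized counts in GL, 52.8, 62.02 and 72 in HL15, 34.3, 11.4 and 13.2 in HL60, 28.6, 43.4 and 33.99 in R15 and 132, 203 and 168 in R60. In these 4 receptors the R60 libraries lay above all others. PID, a kinase that directs auxin carriers, had 21.1, 28.9 and 22.6 normalized counts in GL, 7.46, 8.81 and 16.02 in HL15, 197, 154 and 156 in HL60, 86.2, 81.6 and 104 in R15 and 59.8, 80.6 and 58.9 in R60, with its highest libraries at HL60, and rose at R15 by 1.87 (SE 0.26, adjusted p = 3.61e-05), the only 1 of the 8 called at R15. XERICO, a RING protein whose excess raises abscisic acid, had 229, 218 and 232 normalized counts in GL, 74.7, 76.5 and 86.9 in HL15, 93.02, 251 and 202 in HL60, 60.98, 64.1 and 34.6 in R15 and 453, 606 and 741 in R60, and fell at R15 by 2.12 on the log2 scale (SE 0.31, adjusted p = 6.43e-05). Its R15 libraries lay below every other library. DFL1, which conjugates auxin, had 32.2, 37.9 and 25.4 normalized counts in GL, 9.69, 8.81 and 3.77 in HL15, 14.8, 5.47 and 6.33 in HL60, 14.04, 11.1 and 17.2 in R15 and 11.6, 47.1 and 176 in R60, and its R60 mean rested on replicate 3. ABCB21, an auxin transporter, had 26.7, 54.98 and 99.8 normalized counts in GL, 24.7, 60.1 and 40.7 in HL15, 14.9, 3.23 and 6.35 in HL60, 12.1, 19.9 and 28.05 in R15 and 123, 376 and 55.8 in R60, and its R60 mean rested largely on replicate 2.

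Of the 44 genes outside these groups, 12 were called higher and 5 lower at R15 than in GL, against 10.9% and 8.94% of all genes tested. RD19, a papain-type protease, had 1376, 1175 and 1278 normalized counts in GL, 1100.5, 1978 and 1886 in HL15, 506, 699 and 635 in HL60, 780.0, 1108 and 719 in R15 and 7119, 6651 and 6678 in R60. Its R60 libraries were more than 3 times any other. At R15 it differed from GL by -0.58 (SE 0.20, adjusted p = 0.0307), under the fold limit. TT4, chalcone synthase at the entry to flavonoids, had 1214, 1143 and 614 normalized counts in GL, 285, 184 and 151 in HL15, 412, 1703 and 2409 in HL60, 2958, 1706 and 2839 in R15 and 2045, 3862 and 2961 in R60, and a rise at R15 of 1.36 (SE 0.51, adjusted p = 0.0415) that was not called when any 1 of 7 libraries was left out, the 3 GL libraries among them. With the replicate number as a block the call was also lost (1.36, adjusted p = 0.0563), and with upper quartile scaling (1.26, adjusted p = 0.0568). FER3, a plastid ferritin that stores iron, had 442, 449 and 401 normalized counts in GL, 218, 106 and 117 in HL15, 754, 1549.7 and 2661 in HL60, 1128, 1449 and 1258 in R15 and 1030.3, 1361 and 1228 in R60, and rose at R15 by 1.56 (SE 0.34, adjusted p = 0.00185). PATL2, a membrane trafficking protein with a lipid-binding domain, had 351, 334 and 532 normalized counts in GL, 67.6, 63.4 and 61.6 in HL15, 167, 379.5 and 538 in HL60, 602, 2626 and 3175 in R15 and 1991, 1734 and 1787 in R60, and rose by 2.11 (SE 0.50, adjusted p = 0.00307).

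J11, a small plastid J-domain co-chaperone, had 1920.3, 1502 and 1879 normalized counts in GL, 1177, 1629 and 1610.0 in HL15, 525, 359 and 359 in HL60, 316, 378 and 293 in R15 and 2371, 5264 and 3963 in R60. At R15 it fell by 2.42 on the log2 scale (SE 0.24, adjusted p = 1.93e-06), and its R15 libraries were below those of every condition but HL60. AT5G52882, annotated as an ATPase with a P-loop, had 225, 148 and 275 normalized counts in GL, 69.3, 92.9 and 80.1 in HL15, 253, 1805 and 3182 in HL60, 1016, 2887 and 3914 in R15 and 1849, 1314 and 1433 in R60, and rose at R15 by 3.43 (SE 0.69, adjusted p = 0.000926). AT2G16660, of the major facilitator family, had 250.3, 293 and 249.9 normalized counts in GL, 83.3, 97.7 and 88.7 in HL15, 115, 301 and 288 in HL60, 764, 929 and 1639.8 in R15 and 2614, 2646 and 1598 in R60, and rose by 1.99 (SE 0.33, adjusted p = 0.000208). AT4G15700, of the thioredoxin superfamily, had 19.96, 16.95 and 31.1 normalized counts in GL, 12.7, 10.2 and 9.42 in HL15, 58.4, 73.3 and 37.99 in HL60, 153, 169 and 158 in R15 and 51.7, 46.3 and 44.4 in R60, with a peak at R15 and a rise of 2.81 (SE 0.26, adjusted p = 1.00e-06). Its transcript shares 10.3% of its 31-base words with other genes, most of them with AT4G15660. AT1G14453 met the rule although GL replicates 1 and 3 were at 0, with 0, 73.8 and 0 normalized counts in GL, 0, 31.9 and 0 in HL15, 0, 0 and 11.6 in HL60, 0, 34.6 and 51.6 in R15 and 73.1, 48.7 and 31.1 in R60, and 51.0% of its 31-base words occur in other genes, most of them in AT1G14450, so its place among the 121 is uncertain.

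Several families that respond to light or stress held no rebounding gene. Only 0.590% of all genes tested met the rule, so in families of 8 to 58 genes nothing is read from counts of 0 or 1. None of 12 JAZ repressors, 51 WRKY factors, 8 type-A response regulators, 14 Aux/IAA genes, 16 glucosinolate genes, 8 morning and 10 day and evening clock genes tested met the rule. The share was 1 of 58 SAUR genes, 1 of 24 XTH genes, 1 of 17 expansins, 1 of 40 cysteine-rich receptor kinases and 1 of 53 UGT genes, against 0.590% of all genes tested. A list of 57 genes was drawn by product words that include fibrillarin, NOP56 and U3, the words of the 4 rebounding genes in it, so their share of the list is not compared. They were NOP56, AT2G43110, FIB2 and AT5G27120. In that list, with its 4 rebounding genes, 14 were called higher and 3 lower at R15 than in GL. Over all genes tested, the shares were 10.9% and 8.94%. Of 360 genes annotated as ribosomal proteins, 2 met the rule (0.556%). At R15, 18 of the 360 were called higher and 4 lower, both smaller shares than the 10.9% and 8.94% of all genes tested.

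The median transcript length of the rebounding genes was 1803 bases against 1668 for the protein-coding genes tested, the median coding length 1317 against 1143 bases, and 26 of 121 (21.5%) had 1 exon, against 16.1%. Genes lowered at both times had 1 exon in 9 of 20 cases (45.0%). Chromosomes 1 to 5 held 29, 24, 23, 17 and 28 of the 121, among 5361, 3103, 4027, 3112 and 4735 genes tested. Closely placed pairs were ROC2 and FER3 on chromosome 3 and ST2A and AT5G07030 on chromosome 5, each with 1 gene between. Annotated genes overlapped 36 of the 121, and 20 shared more than 5% of their 31-base words with another gene, counts that were not made for the other genes. Among other motifs searched on both strands, the G-box CACGTG was in 10.7% of the 121 promoters and 8.81% of all, TTGACC in 13.2% and 14.2%, GAANNTTC in 9.92% and 11.6%, AAAATATCT in 5.79% and 2.99%, and the ACGT core, which CACGTG contains, in 52.9% and 50.1%.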

How the data were processed

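RNA was sequenced from leaves of 15 plant samples in 5 light conditions. The authors assigned reads to transcripts of TAIR10 with Salmon 0.12, and the sources used here name DESeq2. The deposited values are a signal, normalized counts per gene. Their steps fit estimated reads scaled by 1 factor for each library, with a further length factor where a gene has more than 1 transcript. This scaling is not described in the sources used here. Of values up to 200 reads, 59.9 to 63.3% came out whole within 0.01 read, so no count model was used. Depth was an estimated 14403243 to 28102805 reads per library, which limits low genes most.

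Genes with a sum of at least 10 over all libraries (20512) were tested with limma 3.58.1 in R 4.3.3 on log2(value + 1), with a trend and all 15 libraries in 1 fit. Calls needed a Benjamini-Hochberg adjusted p under 0.05 over all genes tested and a 2-fold change. The fit was tested on simulated data. Log2 fold changes of genes near 0 depend on the pseudocount. P-values rest on the spread among replicates pooled over all conditions in the fit, so a gene has the same SE in every comparison. Libraries of a condition outside a comparison therefore also enter its p-value.

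Gene names came with the deposited values, with RefSeq TAIR10.1 symbols where none was given. Gene products and promoters came from RefSeq TAIR10.1, joined by locus tag, an annotation other than the TAIR transcripts used for counting. The 121 genes, their groups and all lists were chosen with earlier results of these data known. The naming rule took the 10 genes highest in R60 over GL, lowest in high light over GL and highest in mean value, regulators, genes of the lists and genes at the limits. Alternatives were other pseudocounts, filters, scalings, rule limits, a replicate block and leaving out each library.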

Additional observations from a re-analysis of the deposited data

Results flagged for a closer look

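For 12 rebounding genes the first and last recovery times differed in direction. Each was called lower at R15 than in GL and higher at R60 than at R15. The 12 are 9.92% of the 121, near the 8.94% of all genes tested that were lower at R15, so the count is no result about the rebounding genes. The rule required R60 to be at least 2 times GL, so the difference to R60 is a description. The log2 fold change of R60 against R15 was 9.27 for AT2G44130 and 6.61 for BBX17, values that depend on the pseudocount because these genes were at or near 0 at R15. It was 4.33 for AT3G15450, 3.99 for OZF2, 3.49 for XERICO, 3.48 for J11, 2.74 for DIN10 and 2.51 for FBH4. In AT5G21940 it was 2.72, in AT4G37530, a peroxidase gene, 2.88, in AT4G16000 2.49 and in AT1G62790 2.51.

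Some of these calls at R15 rested on single libraries. The call for DIN10 was lost without R15 replicate 1 (-1.49), and likewise that for AT4G37530 (-0.82). The call for AT1G62790 was lost without GL replicate 1 (-0.91), and that for AT4G16000 without GL replicate 1 (-0.97), GL replicate 3 (-0.95) or R15 replicate 1 (-0.92). AT5G21940 lost it without any 1 of the GL libraries, R15 replicate 2 or R15 replicate 3, with values of -1.57 to -1.38. Transcripts of AT4G37530 share 16.9% of their 31-base words with AT4G37520 and other genes.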

How the results depend on the processing

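The number of rebounding genes was 508 with a factor of 1.5 in place of 2 and 23 with a factor of 3, and 107 to 152 when 1 library was left out. Leaving out 1 library gave 29 to 41 genes higher and 9 to 12 lower at R15 than in GL, 33 to 45 higher and 2 to 5 lower at R15 than at HL60, 46 to 57 higher and 3 to 8 lower at R60 than at R15, and 50 to 64 higher and 19 to 25 lower at HL60 than at HL15. With no fold minimum, 4 genes were lower at R15 than at HL60. Other scalings moved the median log2 fold change of R60 against R15 over all genes by 0.07 (upper quartile) and 0.21 (same total). Of 56 fold changes given for single genes, 41 kept their direction and their side of the limits under all 24 alternatives, and 0 reversed. Genes with few reads, AT1G14453 among them, are limited by depth.

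Deviations of libraries with the same replicate number correlated at -0.083 to 0.137, with 2 of 30 above 0.1. Those of libraries with different numbers correlated at -0.173 to 0.126. The main fit therefore did not pair samples by number, but whether samples were taken as numbered sets cannot be told from these values. With a replicate block, 37 genes were higher and 12 lower at R15 than in GL, 41 higher and 2 lower at R15 than at HL60, 53 higher and 7 lower at R60 than at R15, and 57 higher and 25 lower at HL60 than at HL15.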
